A study of Homo sapiens with 6 samples.

Results

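The circadian clock is a transcriptional feedback loop. CLOCK and its partner ARNTL (BMAL1) bind E-box sequences as a dimer and activate the period genes PER1, PER2 and PER3 and the cryptochrome genes CRY1 and CRY2, whose proteins then repress that dimer. A second loop runs through the REV-ERB nuclear receptors NR1D1 and NR1D2, which repress ARNTL, and through the ROR receptors, which activate it. The DEC repressors BHLHE40 (DEC1) and BHLHE41 (DEC2) also bind E-boxes and repress the dimer, and both are known targets of the hypoxia-inducible factors, whose DNA-binding subunits belong to the same protein family as CLOCK.

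These 10 genes were picked by gene name, by a rule that uses no measured value, although earlier results of these data were known when the list was made. All 10 were found among the 27754 RefSeq genes counted. T47D is an established luminal breast cancer cell line. It was grown in adherent culture in RPMI medium with 10% FBS, and 3 libraries of control cells in 20% O2 (normoxia) were compared with 3 libraries of cells held for 48 h in a chamber set to 0.5% O2 (hypoxia). The oxygen setting is the one in the labels, and the main text of the study gives another. No transgene, deletion or drug was used in either group, and no step that sets the cells to a common clock phase is named in the sources used here. Each condition was sampled at 1 time, so a level could be measured but not a rhythm.

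The libraries held between 32989104 and 89883409 counts, with hypoxia replicate 3 the deepest. A floor of 3 counts stood for 0.0328 to 0.0969 CPM (counts scaled to library size) and covers counting error only. Libraries numbered 3 differed most from the others of their condition, with a chi-square per degree of freedom over genes of 36.8 to 76.6 against 6.48 to 8.5 for the pairs of replicates 1 and 2. All 9 luminal epithelial markers were measured, with a summed level of 14000 to 18100 CPM in normoxia and 10200 to 13500 CPM in hypoxia, and 4 of them (ESR1, PGR, GATA3 and FOXA1) fell. With the replicate number as a block, 6 of the 9 were lower and 1 was higher, against 35.2% and 36.6% of all tested genes. The markers of other cell types were summed in the same way. The leukocyte sum was 2.04 to 2.5 CPM in normoxia and 8.52 to 10.5 CPM in hypoxia, where CD68 rose while PTPRC and CD3E had at most 10 counts in any library. The endothelial sum was at most 0.514 CPM and the basal sum at most 2.08 CPM in any library. The fibroblast sum was 77.3 to 99.5 CPM over the 6 libraries and was almost all COL1A1, while DCN had at most 1 count. PDGFRB, of the same list, rose from 0, 0 and 3 counts in normoxia to 14, 18 and 28 in hypoxia (log2-fold change 3.60, edgeR adjusted p = 0.00624), and it too passed the count filter only through hypoxia. Of 12 genes known to respond to low oxygen, all 12 rose, including VEGFA (log2-fold change 4.36) and CA9 (5.29). CA9 had 37, 26 and 6 counts in normoxia replicates 1, 2 and 3. It passed the count filter only through hypoxia, so its test was bound to favor an increase. How much these marker changes contribute to the results that follow was not tested. Among 15657 tested genes, 59.5% passed an adjusted p of 0.05, with 30.4% up and 29.1% down under hypoxia. Of the genes called, 51.1% were higher, and 64.5% with upper-quartile scaling, which moved the median over all genes from 0.028 to 0.19 on the log2 scale.

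The loop is known to work through short promoter motifs, and some of the 10 promoters held them, as the windows below show. None of the motifs searched was found in CLOCK or NR1D2. All 10 genes were matched by symbol to a RefSeq promoter of 300 bases (250 before the annotated start and 50 after it, GRCh38.p14). The E-box CACGTG reads the same on both strands, and 3 of the 10 promoters held it (BHLHE40, BHLHE41 and PER1) against 7.43% of 27305 promoters. It is in capitals here, in sequences written 5′ to 3′ on the strand of the gene, and distances are from the first base of the motif to the annotated start.
BHLHE40 (chr3:4979187-4979207, plus strand, starting 245 bases upstream): tccaaCACGTGagactcatgt
BHLHE41 (chr12:26125070-26125095, minus strand, starting 48 bases upstream): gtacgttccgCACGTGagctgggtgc
PER1 (chr17:8152562-8152587, minus strand, starting 173 bases upstream): cacccaggtcCACGTGcgcccgtgtg

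The D-box, which the bZIP factors DBP, TEF, HLF and NFIL3 are known to bind, was searched as TTATGTAA or TTACGTAA on both strands. It was present in 2 of the 10 promoters and in 1.05% of all promoters. Both were in PER genes, and the D-box is in capitals.
PER2 (chr2:238288596-238288623, minus strand, starting 3 bases upstream): ccgctgcggcTTACGTAAccgccgccgg
PER3 (chr1:7784104-7784131, plus strand, starting 177 bases upstream): agcccgcgcgTTATGTAAcgcgccccgg

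The core of the hypoxia response element was searched as ACGTG or GCGTG on both strands. ACGTG also lies inside the E-box, and outside an E-box the core was found in 8 of the 10 promoters against 45.2% of all promoters. CLOCK, which did not pass the test below, and NR1D2, which rose in hypoxia, held none in this window. PER2 and CRY2, which rose, and PER1, PER3 and CRY1, which did not pass, held the core. Windows are shown only for the 3 genes with the largest log2-fold changes, a choice made from these data. A link between the core and the change was not tested. The cores are in capitals below, and CACGT is ACGTG read on the other strand. NR1D1 also had matches at 242 and 90 bases upstream and at 38 bases after the start.
BHLHE40 (chr3:4979253-4979277, plus strand, starting 174 bases upstream): cagtggccagACGTGcctggagtca
BHLHE40 (chr3:4979278-4979302, plus strand, starting 149 bases upstream): cagggtagaaCACGTagctccaacc
BHLHE41 (chr12:26125037-26125061, minus strand, starting 14 bases upstream): ccggcgacgcGCGTGccctgtggcc
NR1D1 (chr17:40100742-40100766, minus strand, starting 167 bases upstream): caagagctcaACGTGccggctgttg

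The core of the ROR element, AGGTCA, which the REV-ERB and ROR receptors are known to share, was found in PER1 and CRY2 and in 13.9% of all promoters. The cAMP element TGACGTCA was in 0 of the 10 promoters and in 1.98% of all. A match is a description of the letters and not of binding, which was not measured.

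In hypoxia the repressor genes of the clock differed unevenly from normoxia, and no change in CLOCK was detected. Of the 10 genes, 6 rose (BHLHE40, BHLHE41, PER2, CRY2, NR1D1 and NR1D2), 0 fell, and 4 (PER1, PER3, CRY1 and CLOCK) fell short of the 0.05 threshold (edgeR's quasi-likelihood test). Across all tested genes the share higher was 30.4% by the same rule, and BHLHE41 could pass the count filter only through hypoxia, so that 5 of the 9 others is the count without it. At an unadjusted p under 0.05 the count of lower genes was also 0, and edgeR's exact test and DESeq2 each gave 6 higher and 0 lower. The median log2-fold change was 0.47 for the 10 genes and 0.028 for all genes. An increase of at least 1 on the log2 scale was seen for 3 of the 10 (BHLHE40, BHLHE41 and NR1D1), and for 15.2% of all genes, while 0 of the 10 and 4.91% of all genes fell by that much. The conditions did not overlap for 7 of the 10: 6 were above (34.9% of all genes) and CLOCK was below (32.4%). With the replicate number as a block, 7 of the 10 rose (36.6% of all genes) and 0 fell (35.2%). Since these are bulk RNA samples, a change in the number of expressing cells and a change in RNA per cell cannot be told apart. The labels do not say whether the 3 libraries of a condition came from separate cultures. The study describes its data as from independent experiments and its hypoxia and normoxia samples as paired, without tying these words to each library, so p-values measure the spread between these libraries.

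BHLHE40 was the most abundant of the 10 genes in both conditions. It lies on the plus strand of chromosome 3 (5021097 to 5026865 in GRCh37, as for all gene positions here). Its level was 127, 151 and 115 CPM in normoxia replicates 1, 2 and 3, and 298, 303 and 314 CPM in hypoxia replicates 1, 2 and 3. All hypoxia libraries were above all normoxia libraries, and the hypoxia libraries were close to each other. The mean was 131 ± 18.4 CPM in normoxia and 305 ± 8.22 CPM in hypoxia (SD, n = 3 each), giving a log2-fold change of 1.22 (standard error 0.11, edgeR adjusted p = 1.15e-04). Its exons share 4 bases with BHLHE40-AS1 on the opposite strand.

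BHLHE41 went from near silence to a low level. The gene (chromosome 12, 26272959 to 26278003, minus strand) had normoxia counts of 1, 1 and 0 and hypoxia counts of 49, 45 and 78, in the order of replicates. The normoxia counts were all under the floor of 3 counts, so the gene passed the filter on low counts only through hypoxia, and the test of such a gene was bound to favor an increase. Summed over libraries, 172 counts in hypoxia and 2 in normoxia gave a ratio of 54.9 per unit of sequencing, with an exact 95% interval of 15 to 457 for counting error. The fitted log2-fold change was 5.68 (standard error 0.52, edgeR adjusted p = 1.38e-04), a value that depends on the prior count of the fit. In spite of this ratio, BHLHE41 stayed the lower DEC gene by far, at 0.29 ± 0.056 FPKM (CPM per kilobase of exon; SD, n = 3) in hypoxia against 101 ± 2.71 FPKM for BHLHE40. It made up 0.289% of the summed DEC level per length.

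Among the period genes, PER2 rose. PER2 (chromosome 2, 239152679 to 239197207, minus strand) encodes a repressor that acts in a complex with the cryptochromes. It was at 25.6, 28.1 and 20.9 CPM in normoxia and at 41.9, 45.6 and 33.9 CPM in hypoxia, in the order of replicates 1, 2 and 3. The groups did not overlap, and replicate 3 was the lowest library of each condition. The log2-fold change was 0.70 (standard error 0.15, edgeR adjusted p = 0.00427), with values of 0.71, 0.70 and 0.70 in the 3 same-numbered pairs.

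PER1 and PER3 did not pass the test. PER1 (chromosome 17, 8043788 to 8055753, minus strand), the period gene best known for rapid induction by hormones and cAMP, was at 30.7, 29.1 and 27.8 CPM in normoxia and at 23.1, 32.6 and 24.1 CPM in hypoxia. Hypoxia replicate 2 lay above all normoxia libraries and the other hypoxia libraries below them. The log2-fold change was -0.14 (95% interval -0.46 to 0.18, edgeR adjusted p = 0.415), and without hypoxia replicate 2 it was -0.31 (edgeR adjusted p = 0.0434). With upper-quartile scaling the estimate was 0.021, of the opposite sign. PER3 (chromosome 1, 7844489 to 7905240, plus strand) was at 34.1, 41.6 and 28.3 CPM in normoxia and at 40.6, 45.6 and 33.4 CPM in hypoxia. The groups overlapped, although hypoxia was higher within each same-numbered pair. Its log2-fold change was 0.20 (95% interval -0.18 to 0.57, edgeR adjusted p = 0.321), and it passed with the replicate number as a block (0.21, edgeR adjusted p = 0.0173).

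The cryptochromes, which are the main repressors of the CLOCK dimer, also divided. CRY2 (chromosome 11, 45868669 to 45904799, plus strand) was at 23.3, 26.4 and 23.4 CPM in normoxia and at 34.1, 40.1 and 32.3 CPM in hypoxia, with no overlap. It rose by 0.54 on the log2 scale (standard error 0.11, edgeR adjusted p = 0.00361). The call was lost when both libraries numbered 1 were left out (0.54, edgeR adjusted p = 0.0543). CRY1 (chromosome 12, 107385143 to 107487635, minus strand) was at 26.7, 23.2 and 32.6 CPM in normoxia and at 20.9, 24.1 and 28.4 CPM in hypoxia. These groups overlapped, and the log2-fold change was -0.17 (95% interval -0.53 to 0.19, edgeR adjusted p = 0.376).

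CLOCK, the activator of the loop, did not pass the test. The gene (chromosome 4, 56294068 to 56413076, minus strand) was at 45.3, 44.7 and 42.7 CPM in normoxia and at 42.3, 41.9 and 37 CPM in hypoxia. Every hypoxia library was below every normoxia library, as for 32.4% of all tested genes, but the log2-fold change of -0.13 did not pass (95% interval -0.33 to 0.064, edgeR adjusted p = 0.212). With upper-quartile scaling the estimate was 0.027, so its sign depended on the scaling. Its partner ARNTL had a log2-fold change of -0.13 as well (95% interval -0.38 to 0.12, edgeR adjusted p = 0.324).

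Both REV-ERB genes rose, by different amounts. NR1D1 (REV-ERBα; chromosome 17, 38249037 to 38256978, minus strand) was at 11.0, 14.0 and 14.8 CPM in normoxia replicates 1, 2 and 3, and at 44.0, 65.5 and 49 CPM in hypoxia replicates 1, 2 and 3. The lowest hypoxia library was well above the highest normoxia library. The mean was 13.2 ± 1.98 CPM in normoxia and 52.8 ± 11.3 CPM in hypoxia (SD, n = 3 each), giving a log2-fold change of 2.00 (standard error 0.18, edgeR adjusted p = 1.20e-04). NR1D1 shares 263 exonic bases (9.48% of its length) with THRA, a thyroid hormone receptor gene on the opposite strand. The strand setting of the counting is not given in the sources used here, so reads in those bases cannot be assigned with certainty. THRA itself fell (log2-fold change -0.46, edgeR adjusted p = 0.00361), and the part of shared reads in the NR1D1 value was not tested.

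NR1D2 (REV-ERBβ; chromosome 3, 23986751 to 24022109, plus strand) started higher and rose less. It was at 63.5, 73.0 and 65.6 CPM in normoxia and at 89.4, 100.4 and 77.8 CPM in hypoxia, without overlap. The log2-fold change was 0.40 (standard error 0.11, edgeR adjusted p = 0.0138). This call was lost without normoxia replicate 1 (0.36, edgeR adjusted p = 0.0616), without both libraries numbered 1 (0.36, edgeR adjusted p = 0.145) and without both libraries numbered 2 (0.37, edgeR adjusted p = 0.0514).

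Levels were compared between genes per length, in FPKM from the exonic length in the files. In normoxia the order was BHLHE40 (43.2 ± 6.07 FPKM), NR1D2 (12.2 ± 0.904 FPKM), CRY1 (8.35 ± 1.44 FPKM), PER1 (6.20 ± 0.308 FPKM), CRY2 (5.58 ± 0.402 FPKM), PER3 (5.43 ± 1.04 FPKM), NR1D1 (4.77 ± 0.714 FPKM), CLOCK (3.98 ± 0.123 FPKM), PER2 (3.92 ± 0.572 FPKM) and BHLHE41 (0.0046 ± 0.0040 FPKM; SD, n = 3 throughout). From PER1 down to PER2, each gene overlapped the next in range, so that part of the order is not resolved. In hypoxia NR1D1 moved from rank 7 to rank 2, at 19.0 ± 4.06 FPKM (SD, n = 3), where it overlapped NR1D2 at 16.2 ± 2.05 FPKM (SD, n = 3). PER2 moved from rank 9 to rank 6, in a run from CRY2 to PER1 in which neighbors overlapped. BHLHE40, CLOCK and BHLHE41 did not overlap with their neighbors in hypoxia.

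Within the PER, CRY and REV-ERB families the shares of the summed level shifted. NR1D1 made up 25.5%, 27.5% and 30.8% of the REV-ERB level in the normoxia replicates and 49.4%, 56.4% and 55.5% in the hypoxia replicates. The REV-ERB sum itself was 17 ± 1.40 FPKM in normoxia and 35.3 ± 5.72 FPKM in hypoxia (SD, n = 3), without overlap. PER2 went from 25.2 ± 0.855% to 35.0 ± 1.74% of the PER level (SD, n = 3) while PER1 went from 40.1 ± 3.68% to 30.9 ± 2.96%. The summed PER level overlapped between conditions, at 15.5 ± 1.77 FPKM and 18.3 ± 2.80 FPKM (SD, n = 3). CRY2 made up 39.7%, 46.1% and 35.1% of the CRY level in normoxia and 55.2%, 55.7% and 46.2% in hypoxia, where the nearest libraries, normoxia replicate 2 and hypoxia replicate 3, were almost equal. The summed CRY level overlapped between conditions as well.

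A ratio of 2 genes in a library does not depend on how libraries are scaled, so 9 ratios were compared. They set genes of the same family against each other, or CLOCK, NR1D1 or PER2 against ARNTL. In 7 of the 9 the conditions did not overlap, with a two-sided exact permutation p of 0.1, the smallest that 3 against 3 libraries allow, and 0.129 after adjustment over the 9. None could therefore pass 0.05. The 7 include NR1D1 to ARNTL and PER2 to ARNTL, which are not within a family. They also include BHLHE40 to BHLHE41, and BHLHE41 passed the count filter only through hypoxia. How often ratios of other gene pairs do not overlap was not computed. Among single tested genes, 34.9% lay above and 32.4% below without overlap, so the count of 7 is a description only. The log2 ratio of NR1D1 to NR1D2 changed by 1.59, from -1.37 ± 0.192 in normoxia to 0.22 ± 0.221 in hypoxia (SD, n = 3). That of PER1 to PER2 changed by -0.85, that of PER2 to PER3 by 0.49, and that of CRY1 to CRY2 by -0.71. The ratio of BHLHE40 to BHLHE41 changed by -4.00 with 0.5 counts added to each gene, a value that rests on at most 1 count of BHLHE41 in any normoxia library.

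Ratios to ARNTL, a gene that REV-ERB represses, were compared as well. NR1D1 to ARNTL changed by 2.12 and PER2 to ARNTL by 0.84, and neither overlapped between conditions. CLOCK to ARNTL, the partners of the activating dimer, had a difference of 0.0068 on the log2 scale between -0.11 ± 0.0533 in normoxia and -0.099 ± 0.241 in hypoxia (SD, n = 3; exact permutation p = 0.9). PER1 to PER3 overlapped too, with a difference of -0.36 (exact permutation p = 0.3).

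Other genes of the clock were described from a list of 30, of which 28 passed the filter on low counts. PASD1 and FBXL21 had at most 1 count in any library. Of the 28, 11 rose (39.3%), 6 fell (21.4%) and 11 did not pass, against 30.4% and 29.1% of all tested genes. The 11 include RORA, which passed the filter only through hypoxia. Without both libraries numbered 1, 7 were higher and 3 lower. In that fit 2646 of the 15657 tested genes were higher and 2202 lower. The blocked fit gave 14 higher and 6 lower, against 36.6% and 35.2% of all tested genes. No call made without the block was lost in it. GSK3B and SIRT1 were among those added (0.20 and 0.22, edgeR adjusted p = 0.00964 and 0.0355). The median log2-fold change of the list was 0.23.

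All 4 D-box factors rose in hypoxia, where 30.4% of all tested genes were called higher. NFIL3 (E4BP4), the repressor of the group, was at 10.2, 11.3 and 12.2 CPM in normoxia and at 42.6, 43.5 and 38.8 CPM in hypoxia, for a log2-fold change of 1.89 (standard error 0.10, edgeR adjusted p = 3.35e-05). DBP, an activator at the same sites and a classical output of the clock, was at 7.83, 9.08 and 8.69 CPM in normoxia and at 17.8, 21.6 and 18.7 CPM in hypoxia, for a log2-fold change of 1.18 (edgeR adjusted p = 1.96e-04). TEF and HLF, the other activators, had log2-fold changes of 0.81 and 1.26 (edgeR adjusted p = 0.0099 and 0.00706). TEF lost its call when both libraries numbered 1 were left out (0.85, edgeR adjusted p = 0.0618). None of the 4 overlapped between conditions, and 34.9% of all genes were above without overlap.

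CIART (CHRONO), another repressor of the CLOCK dimer, was at 6.77, 8.14 and 6.98 CPM in normoxia and at 24.1, 27.1 and 17.9 CPM in hypoxia. It rose by 1.66 on the log2 scale (standard error 0.17, edgeR adjusted p = 2.08e-04). Its promoter held 3 E-box matches. Of the 25 promoters found for the other clock genes, 4 held the E-box (TIMELESS, CIART, TEF and SIRT1), against 7.43% of all promoters. TIMELESS and its partner TIPIN, which act at replication forks, fell. TIPIN had a log2-fold change of -1.09 (edgeR adjusted p = 9.78e-05). TIMELESS had a log2-fold change of -0.72 (edgeR adjusted p = 0.0213). It did not pass when normoxia replicate 3, hypoxia replicate 1 or hypoxia replicate 2 was left out (-0.61, -0.64 and -0.54, edgeR adjusted p = 0.0507, 0.0734 and 0.055). Nor did it pass without both libraries numbered 1 or both numbered 2 (edgeR adjusted p = 0.121 and 0.0504). With the replicate number as a block it passed (-0.76, edgeR adjusted p = 1.78e-04).

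Among activators and loop receptors, RORA had the largest fitted change. RORA activates ARNTL at the sites that REV-ERB represses. Its normoxia counts were 5, 12 and 3 and its hypoxia counts 378, 435 and 463, in the order of replicates. In CPM the hypoxia libraries were at 9.34, 11.9 and 5.07, with replicate 3 the lowest. The log2-fold change was 5.54 (standard error 0.49, edgeR adjusted p = 1.20e-04). Like BHLHE41, RORA passed the count filter only through hypoxia, so its test was bound to favor an increase and its fitted value depends on the prior count. RORB went the other way, at 15.5, 14.6 and 20.6 CPM in normoxia and 7.29, 9.32 and 10.7 CPM in hypoxia, for a log2-fold change of -0.89 (edgeR adjusted p = 0.00431). NPAS2, which can take the place of CLOCK in the dimer, rose by 0.83 on the log2 scale (edgeR adjusted p = 0.00489). That call was lost without both libraries numbered 1 (0.94, edgeR adjusted p = 0.0545) and without both numbered 2 (0.75, edgeR adjusted p = 0.057). ARNTL2 had a log2-fold change of 0.53 (edgeR adjusted p = 0.122).

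Of the 14 tested enzymes that modify clock proteins, 3 rose, 3 fell and 8 did not pass, against 30.4% higher and 29.1% lower among all genes. No estimate reached 1 on the log2 scale in either direction, as 15.2% (higher) and 4.91% (lower) of all genes did with a call. PRKAA2, a catalytic subunit of the AMP-activated kinase that marks CRY1 for degradation, rose by 0.64 (edgeR adjusted p = 0.00328), and PRKAA1, the other catalytic subunit, by 0.23 (edgeR adjusted p = 0.0173). PRKAA1 did not pass without normoxia replicate 1 (0.24, edgeR adjusted p = 0.0571) or without hypoxia replicate 1 (0.23, edgeR adjusted p = 0.0696). The same held without both libraries numbered 1 or both numbered 2 (edgeR adjusted p = 0.197 and 0.113). CSNK1A1, a casein kinase, had a log2-fold change of 0.31 (edgeR adjusted p = 0.00825), which did not pass without both libraries numbered 1 or both numbered 2 (edgeR adjusted p = 0.194 and 0.0712). DDB1, HUWE1 and CUL4A, which belong to ubiquitin ligases, had log2-fold changes of -0.51, -0.39 and -0.32. HUWE1 did not pass without both libraries numbered 1 (-0.31, edgeR adjusted p = 0.135). CUL4A, which shares 571 exonic bases (12.7%) with PCID2 on the opposite strand, did not pass with upper-quartile scaling (-0.16, edgeR adjusted p = 0.165) or without normoxia replicate 1 (-0.30, edgeR adjusted p = 0.0559). Its call was also lost with scaling by library totals only (edgeR adjusted p = 0.0887). Without both libraries numbered 1 or both numbered 2 it was lost too (edgeR adjusted p = 0.0873 and 0.0727).

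Of the kinases that phosphorylate PER proteins, CSNK1D had a log2-fold change of 0.042 (95% interval -0.14 to 0.22), and 0.20 with upper-quartile scaling (edgeR adjusted p = 0.0381). CSNK1E counts were 17, 15 and 116 in normoxia and 18, 21 and 209 in hypoxia, high in replicate 3 of both conditions, and 88.0% of its exonic bases are shared with the read-through gene LOC400927-CSNK1E on the same strand, so its counts are uncertain. NOCT (nocturnin), a rhythmic output gene, rose by 0.77 on the log2 scale (edgeR adjusted p = 9.27e-04).

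**Figure D1:**
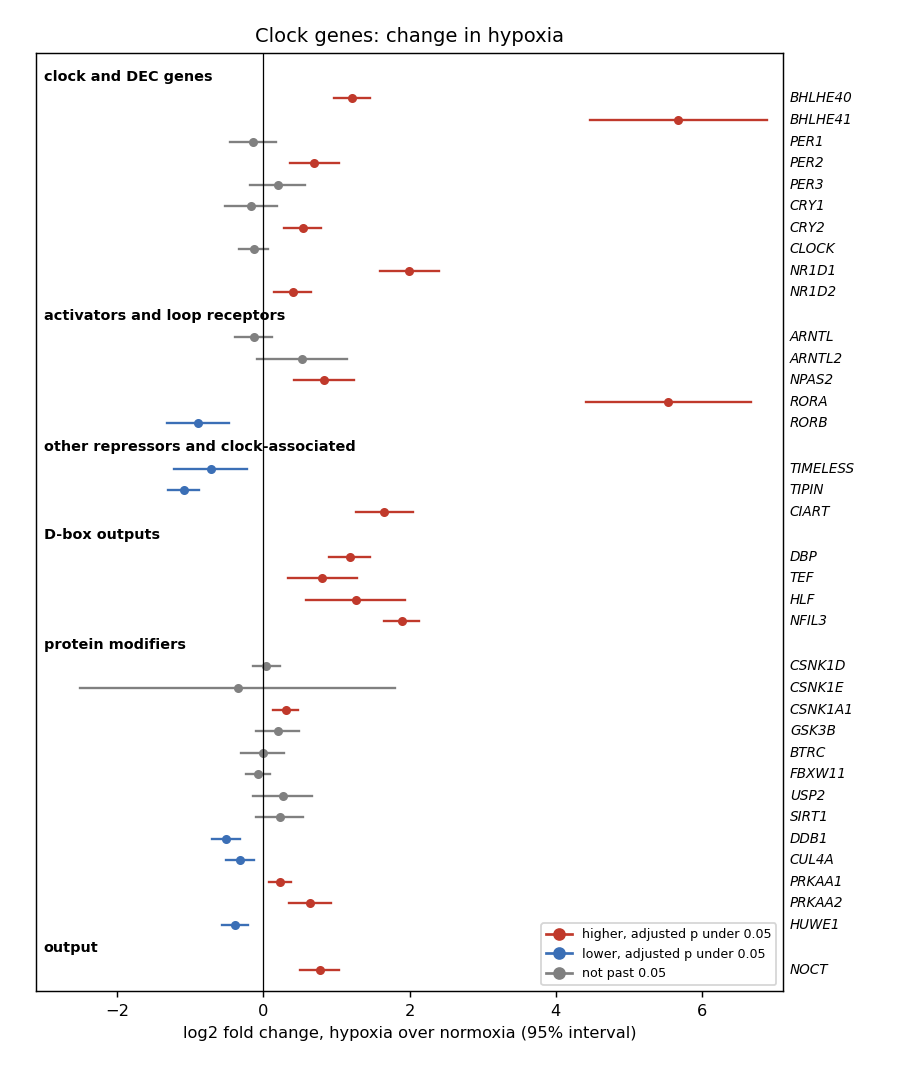
Log2-fold change (x axis, hypoxia over normoxia) with its 95% interval for the 10 clock and DEC genes and the other tested clock genes reported here, grouped by role; red and blue mark genes higher and lower at an adjusted p under 0.05, and grey marks the rest. BHLHE41 (5.68) and RORA (5.54) stand farthest to the right, and TIPIN (-1.09) farthest to the left.

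The genes whose pattern over the 6 libraries was most like that of each clock gene were found by the distance between log2 CPM profiles set to their normoxia mean, among 12661 other genes whose mean count was 100 or more. SFXN3, GFY and ARHGAP40 were nearest to BHLHE40 (distance 0.127 to 0.15). AXL, KRT15 and H19 were nearest to NR1D1 (0.246 to 0.383), ZNF383 and SDCCAG8 to PER2 (0.0767 and 0.114), and R3HDM2, MAFIP and ZNF227 to CRY2 (0.0839 to 0.105). For NR1D2 they were RICTOR, DGKH and ZMYM2 (0.0578 to 0.115), and for CLOCK they were RBMX, MAP2K4 and ACIN1 (0.0255 to 0.0451). Among the clock genes themselves, CRY2 and NR1D2 were the closest pair, at a distance of 0.257. These distances mostly reflect the size of the change between conditions and are given as a description. BHLHE41 was left out of them because a library had 0 counts.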

How the data were processed

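RNA sequencing of T47D cells gave 1 library for each of 6 samples. The authors trimmed with Skewer, used STAR (2.5.2a in the submitters' processing notes) for alignment to GRCh37/hg19, and deposited raw counts per RefSeq gene from featureCounts (1.5.1), without normalization. How strand and multiply mapped reads were handled is not given in the sources used here. The gene length per the file headers is the union of counted exons, and FPKM was computed from it.

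Groups and replicate numbers came from the labels. Genes were kept by edgeR's filterByExpr (minimum count 10, minimum total 15), which left 15657 genes, all 10 clock and DEC genes among them. The test was edgeR's quasi-likelihood test (edgeR 4.0.16, R 4.3.3) with TMM factors and a single condition term, and p-values were adjusted by Benjamini-Hochberg over all tested genes, with a threshold of 0.05. CPM is TMM-normalized. The study's methods name edgeR's exact test, run as an alternative, as were DESeq2 1.42.0, other scalings, no filter, the replicate block, thinning of the deepest library, and leaving out libraries or same-numbered pairs of libraries with the tested genes kept fixed. Same-numbered libraries deviated together (correlation across genes of 0.338, 0.422 and 0.575), so blocked values are given where they change a call among the 10 genes.

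The 10 genes, the list of 30 other clock genes, the 12 low-oxygen genes and the marker lists were chosen with earlier results of these data known. Every gene of the 10 was named, with the 3 tested genes of nearest profile, and other clock genes were named from the fixed list. Some genes of these lists and profiles are not reported here by name. The fits were tested on simulated data in which few genes changed and same-numbered libraries did not deviate together. That setting differs from these data, so it does not check the scaling or the error rate here. Promoters came from RefSeq (GRCh38.p14), a build other than that of the counts.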

Additional observations from a re-analysis of the deposited data

How the results depend on the processing

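Of 170 alternative values for the log2-fold changes of the 10 genes, 162 kept their direction and side of the threshold, 4 lost the call, 2 gained it and 2 changed sign. The sign changes were PER1 (0.021) and CLOCK (0.027) with upper-quartile scaling. With the replicate block, 7 of the 10 genes were higher and 0 lower, against 36.6% and 35.2% of all tested genes. PER3 was added, and no other call of the 10 changed with the pairing. With libraries or pairs of libraries left out, 4 to 6 of the 10 were higher and 0 to 1 lower (PER1 without hypoxia replicate 2). In these fits 7 to 14 of the other clock genes were higher and 3 to 6 lower, and among all genes 2646 to 5585 were higher and 2202 to 5531 lower (4765 and 4551 with all libraries). The lowest counts over all genes were those without both libraries numbered 1 and the highest those without both numbered 3, and each of these fits has 2 libraries a condition. The difference of the CLOCK to ARNTL ratio ranged from -0.097 to 0.14 with a library left out, and it was negative without normoxia replicate 3 (-0.018), hypoxia replicate 1 (-0.023) or hypoxia replicate 2. The cause was not tested. The other 8 ratios kept their sign. BHLHE41 is limited by depth, since its normoxia counts lie under the floor.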
